A study of Mus with 2 samples.

Results

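The stem cells of the mouse ileal epithelium were described from 2 tables that the authors made from single-cell RNA sequencing. The first is their sheet for stem cells, which holds 5403 genes of the 25418 gene rows in 5 cell type sheets. The second is their table of cluster markers, in which 761 of 2096 rows belong to cluster 2 (of 8 clusters), the cluster led by stem and growth genes. All 5403 genes of the sheet and all 761 rows were kept. The cells came from the distal ileum, were sorted by flow cytometry and were sequenced by inDrops, a droplet method that gives each cell a barcode. The sample of the nociceptor-ablated group came from Nav1.8Cre+/-DTA+/- mice, in which Cre under the promoter of a sodium channel of pain-sensing neurons switches on diphtheria toxin A and kills those neurons. The control sample came from Nav1.8Cre-/-DTA+/- littermates, which carry the toxin allele too but no Cre. Each sample pooled 3 male mice of 8 weeks at baseline, and there was 1 sample per genotype.

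No table states which genotype came first, so the groups are called group 1 and group 2 as in the sheet, and no value below gives a direction of nociceptor loss. A log2 fold change is group 1 over group 2, and detection is the share of cells of a group in which a gene was found. With 1 sample a group there is no replicate error and no test. Differences are described by a fixed size, a log2 fold change at or beyond 0.1 in either direction, and lists of genes by their counts and medians beside those of all genes in the sheet. The number of cells and the depth behind each share are not given in the sources used here, so no interval was computed.

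Stem cells at the crypt base are held in that state by Wnt and Notch signals. Their daughters divide rapidly as transit-amplifying cells and then move up the villus, most of them as absorptive enterocytes. Dividing crypt cells make many ribosomes, histones and mitochondrial proteins, whereas mature enterocytes make brush border enzymes, transporters and lipoproteins.

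Of the 5 genes given as markers of these cells, 4 were among the cluster 2 rows. Ptma, which encodes the chromatin protein prothymosin alpha, led the cluster. The authors' deposited table gave it 2.15 over all other cells (log2), and a detection of 95.8% in the cluster against 23.2% elsewhere. Olfm4, a secreted glycoprotein of crypt base stem cells, came next at 2.08 and was found by the authors' deposited table in 45.4% and 8.1%. Rpl14 (1.8) and Rpsa (1.64), proteins of the large and small ribosomal subunit, were at rank 3 and rank 4 in the authors' deposited table. Smoc2, a matricellular protein of stem cells, is in the stem cell sheet but is not a cluster 2 row. Every row of the marker table had a log2 fold change of at least 0.25 and detection of at least 25% in its cluster, and Smoc2 was found in 20.2% and 28.1% of groups 1 and 2 in the authors' deposited table.

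Most of the leading markers serve protein synthesis rather than stem cell identity: 16 of the top 20 rows were ribosomal proteins. Over the 761 rows, 76 encoded ribosomal proteins, 58 were nuclear genes of oxidative phosphorylation, 21 were translation factors and 20 were histone or chromatin genes of proliferating cells. Cell division genes of the mitosis list (9 rows) and of the replication list (5 rows) were nearly all in this cluster, since the other clusters together held 2 and 1. The ubiquitin-conjugating enzyme Ube2c, of mitotic exit, was detected in 25% of the cluster's cells and 1.8% of others in the authors' deposited table, and the topoisomerase Top2a in 29.7% and 3.1%. Pcna, the sliding clamp of DNA replication, was detected in 32.2% and 5.3% in the authors' deposited table.

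Of 34 crypt stem markers, 5 were cluster 2 rows, against 4 in cluster 7, 3 in cluster 6 and 1 in cluster 4. Besides Olfm4 these were the chloride channel regulator Clca3b (62.0% of cells inside and 9.7% outside), the microtubule regulator Stmn1 (46.4% and 3.1%), the sodium-potassium-chloride cotransporter Slc12a2 (29.1% and 4.2%) and Hopx (31.5% and 6.0%) in the authors' deposited table. Lgr5, the R-spondin receptor that marks crypt base stem cells, was not a row of cluster 2. It was a row of cluster 7, which is led by tuft cell genes, with detection in 36.0% of that cluster and 11.6% of other cells in the authors' deposited table. The cluster's markers thus include stem cell and cell division genes together. No enterocyte marker of the mature absorptive list, no goblet or enteroendocrine marker and no marker of Paneth, immune or stromal cells was a cluster 2 row, while 3 tuft markers were (Cd24a, Fyb and Pou2f3).

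**Figure D1:**
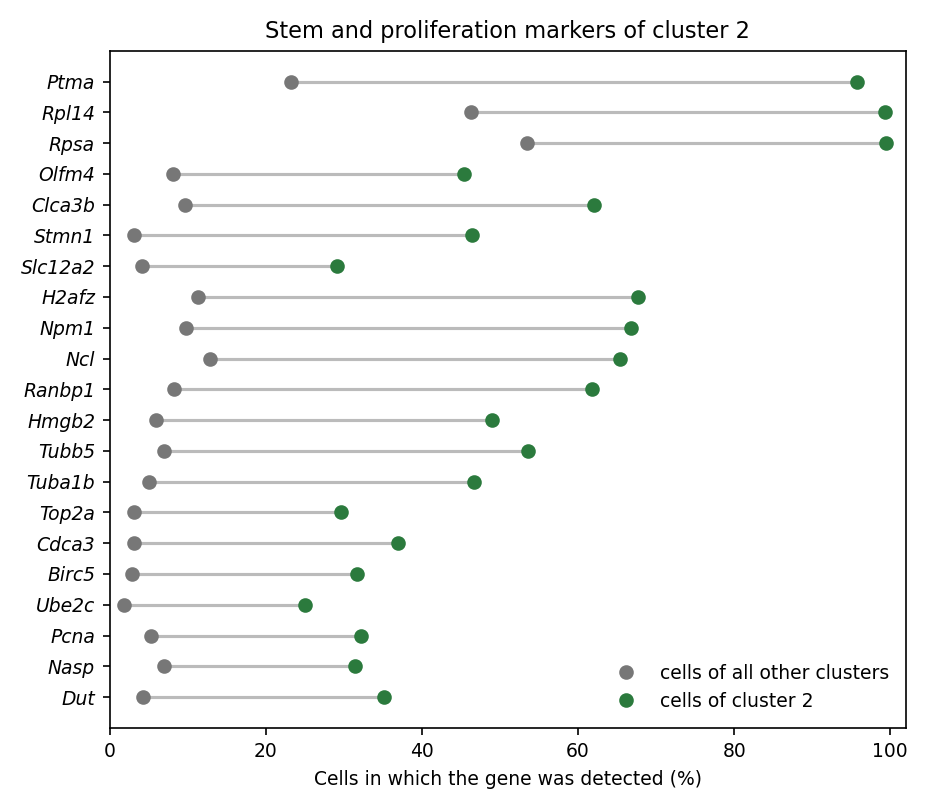
Detection (percent of cells) of 21 stem, growth and cell division markers inside cluster 2 (green) and in all other clusters (grey), from the authors' deposited table. Ptma was detected in 95.8% of cluster 2 and 23.2% of other cells, and Olfm4 in 45.4% and 8.1%.

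The detection shares of the sheet and of cluster 2 do not match. For the same cells, counted in the same way, a gene's share in the cluster would lie between its shares in the 2 groups. Among the 532 markers whose groups differed by at least 5 points, this was so for 146 (27.4%, with a tolerance of 0.1 point), and for the other 386 the cluster's share was under both, by a median of 4.0 points. None was over both. In enteroendocrine cells and cluster 6 the same check placed 228 of 235 markers between the groups, and in tuft cells and cluster 7 it placed 148 of 162. In goblet cells and cluster 4 it placed 59 of 142 there. The marker profile therefore describes a related but not identical set of cells.

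Over the whole sheet, values lay on the lower side of 0 and detection was lower in group 1. The median log2 fold change was -0.07, with the middle part of the genes between -0.12 and -0.04 (quartiles). A log2 fold change at or below -0.1 was met by 1703 genes (31.5%), and at or above 0.1 by 17 (0.315%). Detection was lower in group 1 for 4958 genes, and by 10 points or more for 497 (9.2%), while no gene was detected more often in group 1 by that much. The median share was 16.6% in group 1 and 20.6% in group 2. A gene was listed where at least 10.0% of the cells of at least 1 group held it, so the counts below cover the list members that reached this share and say nothing of the others. For a gene under this share in 1 group, the direction of its difference in detection was set by this limit.

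The size of the fold change followed detection, which bears on every list below. From the second-lowest to the highest decile of genes by detection (medians 10.7% and 73.2%), the median log2 fold change went from -0.04 to -0.20, and the share of genes at or below -0.1 from 3.89% to 79.1%. Each list is therefore also set against genes of the same decile. The zero point is uncertain as well. Among 261 genes held by 70% or more of the cells in each group, the authors' p-values, computed over cells and not used otherwise, were smallest for the highest fold changes (a Spearman rank correlation across genes of 0.69 between the log2 fold change and the negative logarithm of p, on genes that share their cells and are not independent). Among trial zeros, the distance from -0.67, with 5399 genes above it, followed the p-values best, also at 0.69. Of the 261 genes, 259 lay above that value. Zeros further down therefore give nearly the same order, and the zero is not located. The distance of a list from the median of all genes does not depend on this zero, but the sign of its values does. Set against the median of the well-detected genes (-0.20) in place of all genes, 23 of 24 list medians lay on the higher side, that of the crypt stem list included (0.0964), and only that of class II on the lower.

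**Figure D2:**
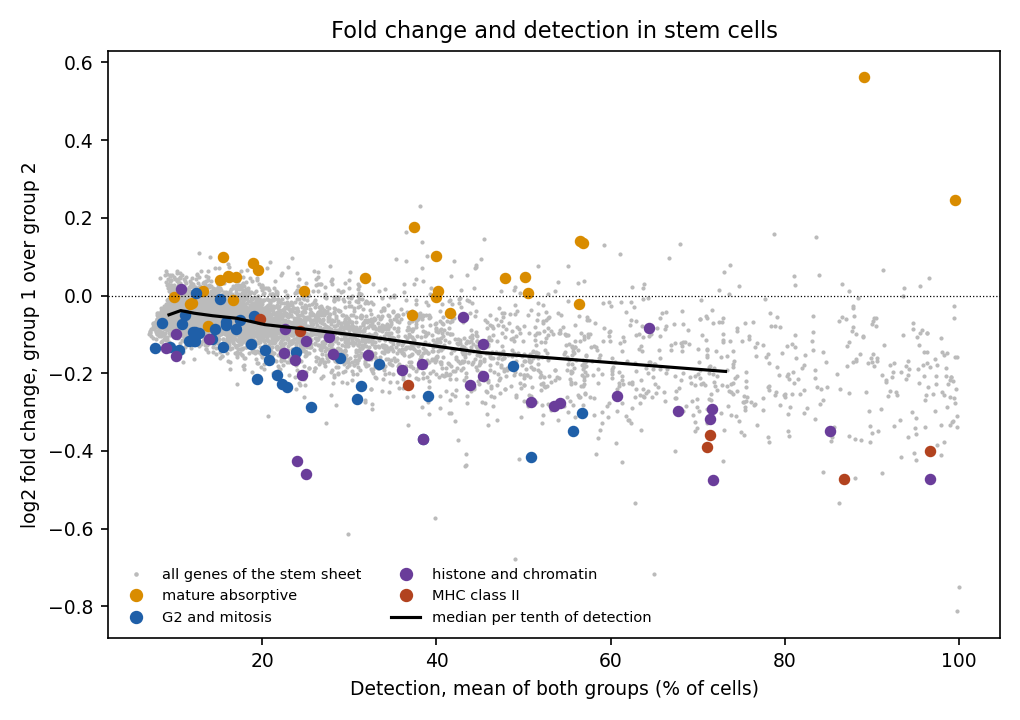
Log2 fold change (group 1 over group 2) against detection (mean of both groups, percent of cells) for the 5403 genes of the stem cell sheet (grey), with members of 4 lists in colour and the median of each decile of detection as a black line. The line goes down to -0.20, 28 of 29 mature absorptive genes lie above it and class II and chromatin genes mostly below it.

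Of the 34 crypt stem markers, 22 were in the sheet, and all 22 were detected in fewer cells of group 1, as were 91.8% of all genes. Of these, 12 (54.5%) were at or below -0.1, against 31.5% of all genes, and none was at or above 0.1. The median of the 22 was -0.10, which is 0.03 under that of all genes. Of the 22, 15 lay under the median of their own decile of detection (median offset -0.04). Ascl2, Rgmb, Aqp4, Axin2, Lrig1 and Rnf43 were under 10.0% in group 1 and so were listed through group 2 alone. Their lower detection in group 1 was set by that limit, and Ascl2 and Rgmb are among the 12. All of them but Rnf43 are also among the 15, so that count and its offset rest in part on this limit. Olfm4 (chromosome 14, 80000302 to 80023141, mm10) was the lowest. The authors' deposited table lists it in 44.9% of group 1 and 54.0% of group 2 and at -0.42, rank 22 from the bottom of all genes. Next in the authors' deposited table were Stmn1 (chromosome 4, 134468320 to 134473843) at -0.27 with 43.1% and 58.5%, and Clca3b at -0.27 with 63.9% and 74.7%.

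The receptors and transcription factors of the list had smaller differences on this scale than these leading genes. The authors' deposited table gave Lgr5 (chromosome 10, 115450314 to 115587780) -0.13, with 21.1% of group 1 cells and 29.9% of group 2 cells positive. Smoc2 (chromosome 17, 14279490 to 14404790) was at -0.17 with 20.2% and 28.1% in the authors' deposited table. Ascl2, the Wnt-driven transcription factor that sustains Lgr5 cells, was detected in 6.1% and 11.4% and was at -0.10 in the authors' deposited table. Lower members in the authors' deposited table also included Slc12a2 (-0.16), Hopx (-0.15), Cdca7 (-0.14), Jun (-0.14), the vitamin D receptor Vdr (-0.12) and Rgmb (-0.10). The remaining members were short of the 0.1 limit. They were Aqp4 (-0.09), Pdgfa (-0.08), the Wnt target Axin2 (-0.06), Prom1 (-0.05), Cdk6 (-0.05), the ephrin receptor Ephb2 (-0.04), Sox9 (-0.04), the growth factor brake Lrig1 (-0.04), the Wnt receptor ligase Rnf43 (-0.04) and Igfbp4 (-0.03) in the authors' deposited table.

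**Figure D3:**
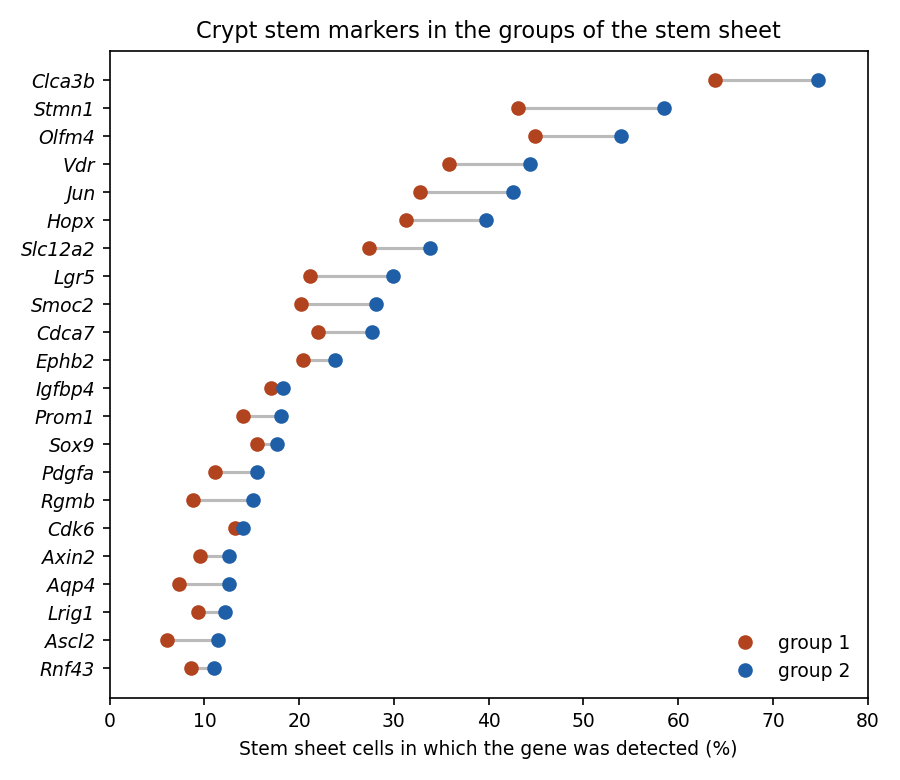
Detection (percent of stem sheet cells) of the 22 crypt stem markers in group 1 (red) and group 2 (blue), from the authors' deposited table. Every marker is lower in group 1, from Clca3b at 63.9% and 74.7% down to Rnf43. Markers under 10.0% in group 1 were listed through group 2 alone, which set this direction for them.

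Of 27 Wnt and Notch genes, 9 were listed and 2 of these (22.2%) were at or below -0.1, a smaller share than among all genes. Hes6, a regulator of the Notch response, was at -0.20 and the cyclin Ccnd1 at -0.15 in the authors' deposited table. The Notch effector Hes1 was at 0.01 and the R-spondin receptor Lgr4 at -0.01 in the authors' deposited table. By the authors' deposited table Hes1 was found in 29.3% of group 1 and 28.7% of group 2, so its shares differed by less than 1 point where most genes differed by several.

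The cell division lists had unlike values. Of 41 listed genes of G2 and mitosis, 27 (65.9%) were at or below -0.1 and none was at or above 0.1. Their median of -0.13 was 0.06 under that of all genes, and 38 of 41 lay under the median of their own decile of detection, although the list median is 0.06 over that of the well-detected genes. Of 38 listed replication genes, 12 (31.6%) were at or below -0.1, next to 31.5% of all genes, and the median was -0.08. By their decile of detection 21 replication genes lay under and 17 over. Of the 33 listed histone and chromatin genes, 28 (84.8%) were at or below -0.1, with a median of -0.19, and 28 were under the median of their decile.

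Tubulins and mitotic regulators had the lowest values of the mitosis list. Tuba1b, an alpha-tubulin (chromosome 15, 98931429 to 98934390), stood at -0.42 in the authors' deposited table and was found in 38.1% of group 1 against 63.5% of group 2. Its difference of 25.4 points was the third-largest in detection in the sheet. The beta-tubulins Tubb4b (48.3% and 63.1%) and Tubb5 (51.2% and 62.3%) stood at -0.35 and -0.30 in the authors' deposited table. Ube2c was at -0.29 (20.4% and 30.8%), Top2a at -0.27 (25.6% and 36.1%) and Cdca3, a mitotic entry factor, at -0.26 (33.6% and 44.4%) in the authors' deposited table. At the other end of this list the securin Pttg1 was at -0.01 and the kinase Pbk at 0.01 in the authors' deposited table. In these data fewer dividing cells and less RNA per dividing cell cannot be told apart.

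In the replication list, Pcna was at -0.21 (32.0% and 40.3%) and the helicase subunit Mcm7 at -0.19 (20.4% and 31.4%) in the authors' deposited table. Mcm5, a further subunit of that helicase, was at -0.05, and the DNA polymerase delta subunit Pold2 at -0.04, in the authors' deposited table.

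Histone genes and chromatin proteins were the lowest of the division lists. The replication-dependent histones Hist1h2ap (17.9% and 32.2%) and Hist1h2ao (17.5% and 30.6%) stood at -0.46 and -0.43 in the authors' deposited table. These copies of the H2A family are nearly identical in sequence, so their reads may be split between them and their separate values are uncertain. The authors' deposited table gives the variant H2afz -0.48 (65.8% and 77.6%) and the variant H2afx -0.37 (29.7% and 47.3%). Ptma (95.0% and 98.2%) was at -0.47 in the authors' deposited table. The nucleolar proteins Ncl and Npm1 were at -0.32 and -0.29, and Ranbp1 and Ran, of nuclear transport, at -0.30 and -0.28 in the authors' deposited table. Hmgb2 was at -0.28 and Anp32b at -0.26 in the authors' deposited table. Only Hist1h1c, a linker histone, lay over 0 in this list (0.02 in the authors' deposited table).

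Most listed genes that hold the cell cycle back stood on the other side of the median. Of 11 listed inhibitors and p53 targets, 1 (9.09%) was at or below -0.1, against 31.5% of all genes. Of the 11, 9 lay above the median of all genes, with a list median of -0.04. The gene at or below -0.1 was Trp53 itself at -0.19, detected in 20.4% and 31.8% of cells in the authors' deposited table. Cdkn1a, the p21 inhibitor, was at 0.03 with 28.1% and 25.1% in the authors' deposited table. The antiproliferative factor Btg1 was at -0.08, also under the median, and the CDK4/6 inhibitor Cdkn2b at -0.02 in the authors' deposited table.

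**Figure D4:**
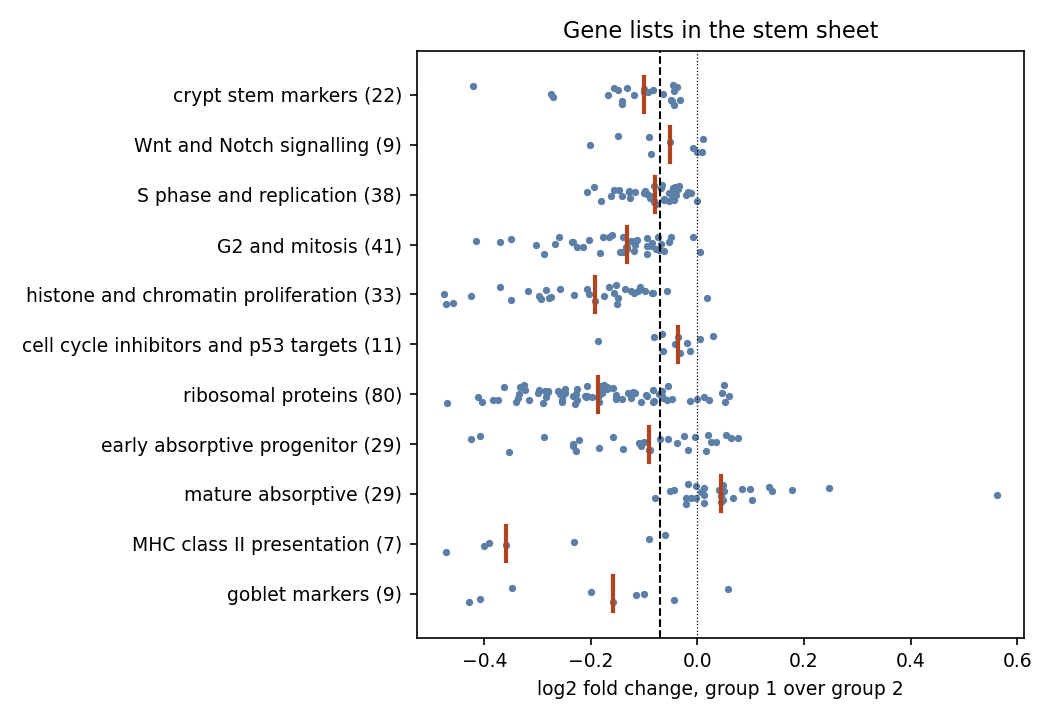
Log2 fold change (group 1 over group 2) of each listed gene (points) in 11 lists of the stem cell sheet, with the number of genes in brackets, the list median (red) and the median of all genes (dashed, -0.07). Mature absorptive genes have the highest median (0.04) and class II genes the lowest (-0.36).

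Genes of protein synthesis had median offsets near 0 against genes of like detection. Of 80 ribosomal protein genes, 60 (75%) were at or below -0.1, against 31.5% of all genes, and the median was -0.19. Against their own decile of detection, 43 lay under and 37 over, with a median offset of -0.01. The marker pair Rpl14 (chromosome 9, 120571517 to 120574653) and Rpsa (chromosome 9, 120127766 to 120132369) stood at -0.33 and -0.33 in the authors' deposited table. Both were found in over 98% of cells of either group. Rps2 was the lowest at -0.47, with 81.4% and 94.7%, and Rpl4 followed at -0.41 with 97.5% and 98.2% in the authors' deposited table. At the other end were Rps27 (0.06), Rps28 (0.05) and Rpl36a (0.05) in the authors' deposited table. Reads of ribosomal protein genes can be shared with their many pseudogenes, so single values are uncertain.

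Of 25 listed ribosome assembly genes, 9 (36.0%) were at or below -0.1, near the 31.5% of all genes, and 16 lay under and 9 over the median of their decile. Nolc1 (-0.23) and Nhp2 (-0.22), both of the small nucleolar ribonucleoprotein machinery, were lowest, and Imp3 (0.02) was highest in the authors' deposited table. Of 59 translation factor genes (found by name, a few pseudogene rows among them), 30 (50.8%) were at or below -0.1, and 39 lay under and 20 over the median of their decile. The elongation factors Eef1a1 (-0.42) and Eef1g (-0.35), the factor Eif5a (-0.42) and the junction helicase Eif4a3 (-0.33) were the lowest in the authors' deposited table, and against their decile of detection the list had a median offset of -0.01.

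The early and mature absorptive lists had medians on different sides of that of all genes, but both lay over genes of like detection. Of 29 listed early absorptive and enterocyte progenitor genes, 14 (48.3%) were at or below -0.1, against 31.5% of all genes, and none at or above 0.1. Their median of -0.09 was 0.02 under that of all genes, but 19 of 29 lay over the median of their decile of detection (median offset 0.06). Mature absorptive genes lay on the higher side: none of 29 was at or below -0.1, 6 (20.7%) were at or above 0.1, against 0.315% of all genes, and 28 lay above the median of all genes. Their median was 0.04, and 28 of 29 were over the median of their decile (median offset 0.14).

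Within the early group, the lectin-like scavenger receptor gene Dmbt1 (68.3% and 77.4%) was at -0.43 and Gpx2, a crypt glutathione peroxidase (81.6% and 89.4%), at -0.35 in the authors' deposited table. The intestinal homeobox factor Cdx2 (30.6% and 46.0%) was at -0.29 in the authors' deposited table. Agr2 (-0.41 in the authors' deposited table) is also a goblet cell gene. Dmbt1, Gpx2, Cdx1, Mgst1 and Mt1 were the list's members among the cluster 2 rows. At the upper end of the list Ccl25, a chemokine of the small bowel epithelium, was at 0.08 in the authors' deposited table. The apolipoprotein gene Apob was at 0.06 and the keratin Krt19 at 0.03 in the authors' deposited table. The pancreatic secretory trypsin inhibitor gene Spink1 was also at 0.03 in the authors' deposited table.

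Among mature genes Apoa1, a lipoprotein component (chromosome 9, 46228630 to 46230469), had the highest value in the sheet. The authors' deposited table gives 0.56, with a detection of 88.2% in group 1 against 90.0% in group 2. Fabp6, the ileal bile acid binding protein, was at 0.25 with 99.5% and 99.6% in the authors' deposited table. Guca2b, which encodes uroguanylin, was at 0.18 (39.7% and 35.2%), the aminopeptidase Anpep at 0.14 and the keratin of villus cells Krt20 at 0.13 in the authors' deposited table. The carboxylesterase Ces2e was at 0.10 (42.2% and 37.7%) and Slc51b, a subunit of the basolateral bile acid exporter, at 0.10 in the authors' deposited table. The only member below the median of all genes was Slc10a2, the apical bile acid transporter, at -0.08 in the authors' deposited table. Apoa1, a marker of clusters 1 and 5, was found in 93.8% of all cells outside cluster 1, and Fabp6 in 100%, in the authors' deposited table. The part of free RNA in their values was not tested. Of the 29 genes, 17 were detected in fewer cells of group 1, as were 91.8% of all genes.

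Both lists of villus position were short. Of 8 listed villus bottom genes, 4 (50%) were at or below -0.1, against 31.5% of all genes, with Reg3g at -0.81 and Reg3b at -0.75, secreted lectins found in at least 99.8% of cells, in the authors' deposited table. Both lectins were markers of cluster 0 but were also found in 100% of cells outside it in the authors' deposited table. The part of free RNA in their values was not tested. Lypd8 was at -0.15, while Ccl25 and Gsdmc4 were at 0.08 each in the authors' deposited table. Of 9 listed villus tip genes, 5 (55.6%) were at or below -0.1 with a median of -0.11, lowest for Fos at -0.31 in the authors' deposited table. Against their decile of detection, 5 of 9 tip genes and 5 of 8 bottom genes lay over.

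Energy genes were mostly under the median of all genes, and several of their lists were over that of genes of like detection. Of 84 nuclear oxidative phosphorylation genes 53 (63.1%) were at or below -0.1, but 56 lay over the median of their decile of detection. Cyc1, Atp5f1 and Cox4i1 had values of -0.37, -0.34 and -0.34 by the authors' deposited table. Of 12 listed glycolysis genes, 8 (66.7%) were at or below -0.1, with Ldha at -0.36 and Aldoa at -0.26 in the authors' deposited table. Of 18 genes of fatty acid oxidation and ketogenesis 6 (33.3%) were, near the 31.5% of all genes, with none beyond Decr1 at -0.15 in the authors' deposited table. Of 16 mitochondrially encoded genes, 8 (50%) were at or below -0.1, 11 lay over the median of their decile, and mt-Co1 was at 0.15 in the authors' deposited table.

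Among 27 cytosolic chaperones, 12 (44.4%) were at or below -0.1 and 1 at or above 0.1, against 31.5% and 0.315% of all genes, and 20 lay over the median of their decile. Hspa8 was at -0.37 and the chaperonin subunit Cct2 at -0.25 in the authors' deposited table. Hsph1, a nucleotide exchange factor of the same system (chromosome 5, 149616843 to 149636498), had a value in the authors' deposited table of 0.23. Its detection, 43.1% against 33.2%, was further above group 2 than that of any other gene. Hsph1 was also 1 of 3 cluster 2 markers at or above 0.1, with the meiotic gene Rec114 (0.13) and Gm15148 (0.10) in the authors' deposited table. Immediate early genes, induced by handling stress as by growth factors, had 3 of 16 (18.8%) at or below -0.1, a smaller share than all genes, and 12 over the median of their decile. The 3 were Fos at -0.31, Ier2 at -0.25 and Jun at -0.14 in the authors' deposited table.

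Antigen presentation by class II had the lowest median of any list with at least 5 genes. Of 7 listed genes 5 (71.4%) were at or below -0.1, against 31.5% of all genes. The median of -0.36 was 0.29 under that of all genes and 0.16 under genes of the same deciles of detection. The authors' deposited table puts H2-Ab1, a class II beta chain (chromosome 17, 34263227 to 34269418), at -0.47 with 81.0% and 92.5%. Its partner H2-Aa was at -0.39 (65.8% and 76.2%), H2-Eb1 at -0.36 (65.3% and 77.4%) and the invariant chain Cd74 at -0.40 (95.2% and 98.2%) in the authors' deposited table. None of these was a marker of cluster 2. H2-Ab1 and Cd74 were rows of cluster 1, with a share of 91.8% and 99.4% there in the authors' deposited table. None of 35 immune and stromal markers was among the sheet's genes, each of which reached 10.0% of a group.

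Class I genes were on the same side but nearer to the rest: 10 of 14 listed genes (71.4%) were at or below -0.1, against 31.5% of all genes, with a median of -0.18. H2-D1 was at -0.34 and H2-K1 at -0.26, and beta-2-microglobulin, B2m, at -0.25 (66.2% and 81.9%) in the authors' deposited table. Of 10 listed interferon-stimulated genes 5 (50%) were at or below -0.1 and 5 lay above the median of all genes. Ifitm3, a membrane antiviral protein and cluster 2 marker (38.0% of its cells and 2.5% of others), was far below the others of its list at -0.57 with 32.2% and 47.5% in the authors' deposited table.

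Transcripts of other cell types also differed between the groups. Of 25 goblet markers 9 were in the sheet, 7 (77.8%) at or below -0.1, against 31.5% of all genes, with a median of -0.16. By their decile of detection 5 lay under and 4 over. Spink4 (52.8% and 69.7%), Agr2 (34.0% and 52.8%) and Tff3 (74.4% and 86.2%) had values of -0.43, -0.41 and -0.35 by the authors' deposited table, where the goblet protein Clca1 has 0.06. Muc2, the defining mucin, was at -0.20 in the authors' deposited table. The part of goblet RNA in the other differences was not tested. Of 21 Paneth markers 5 were listed, 2 (40%) at or below -0.1 and 1 at or above 0.1, against 31.5% and 0.315% of all genes. Of the 5, 3 lay above the median of all genes. Defa24 was at -0.26, Lyz1 at -0.10 and Guca2b, also in the mature absorptive list, at 0.18 in the authors' deposited table. Only 1 of 27 enteroendocrine markers (Sct), 3 of 22 tuft markers and none of 35 immune and stromal markers reached the 10.0% limit. Among the tuft genes Pou2f3, their master regulator, was detected in 28.8% and 40.1% of the stem sheet's cells in the authors' deposited table.

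Several of the largest differences fell outside the lists. Faxc was detected in 34.7% (group 1) and 63.3% (group 2) (-0.68) and the scaffold attachment factor Safb in 51.0% and 74.5% (-0.53) in the authors' deposited table. Car1, a carbonic anhydrase, was detected in 10.2% and 31.2% (-0.31), and Nmbr, a receptor for the peptide neuromedin B, in 32.4% and 52.5% (-0.37) in the authors' deposited table. The glutamate transporter Slc1a1 was detected in 27.4% and 47.2% and the mitochondrial carrier Slc25a39 in 52.2% and 71.7% in the authors' deposited table. The actin-binding profilin Pfn1 (-0.46) and the actin Actg1 (-0.45) were next to the histones in the order of values in the authors' deposited table. At the upper end, Glod5 (41.0% and 32.0%), the sulfotransferase Sult1b1 (23.6% and 18.3%) and Mettl7b (17.2% and 10.8%) were detected more often in group 1, with values of 0.09, 0.09 and 0.10 in the authors' deposited table. The authors' deposited table also has near this end Amn (0.10), the cubilin partner of vitamin B12 uptake, the brush border scaffold Slc9a3r1 (0.10), the dipeptidase Cndp2 (0.09) and the mitochondrial leucyl-tRNA synthetase Lars2 (0.11).

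All 761 markers of cluster 2 were genes of the stem cell sheet. Of these, 590 were at or below -0.1 and 3 at or above 0.1, against 31.5% and 0.315% of all genes, and the median was -0.17. These markers are well detected, and against their own decile of detection 421 lay under and 340 over, with a median offset of -0.01. Of the 240 markers of cluster 1, the mature enterocyte cluster, 202 were in the sheet, and 169 of them lay over the median of their decile (median offset 0.06). Of the 282 markers of cluster 4, led by goblet genes, 219 were in the sheet and 148 lay under it (median offset -0.03).

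The stem, enterocyte and goblet sheets come from the same 2 pools of mice, so their values are given side by side with no test between them. Over genes listed in all 3 sheets, class II genes (6) had a median 0.31 under that of all genes in stem cells, 0.01 under in enterocytes and 0.04 over in goblet cells. H2-Ab1 was at -0.47, -0.03 and -0.01 in the same order in the authors' deposited table. Histone and chromatin genes (12) were 0.21 under in stem cells, 0.02 under in enterocytes and 0.06 under in goblet cells. These distances between sheets were not matched for detection. H2afz was found in 65.8% and 77.6% of stem cells (groups 1 and 2) but 11.3% and 17.1% of enterocytes in the authors' deposited table. For H2-Ab1 the shares there were 81.0% and 92.5%, and 84.4% and 79.4%. The 6 crypt stem markers listed in all 3 were 0.07 under, 0.01 under and 0.04 over. Olfm4 was at -0.42, -0.05 and -0.02 in the authors' deposited table; it was found in 12.6% of group 2 enterocytes.

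Mature absorptive genes (29) were 0.11 over the median of all genes in stem cells, 0.11 over in enterocytes and 0.19 over in goblet cells. Apoa1 was at 0.56, 0.50 and 1.29 and Fabp6 at 0.25, 0.18 and 0.79 in the authors' deposited table. The ribosomal protein genes listed in all 3 (71) were 0.14, 0.12 and 0.11 under, and nuclear oxidative phosphorylation genes (78) 0.07 under in each. Reg3g was at -0.81, -0.82 and -0.60, Safb at -0.53, -0.49 and -0.27, and Car1 at -0.31, -0.21 and -0.23 in the authors' deposited table.

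**Figure D5:**
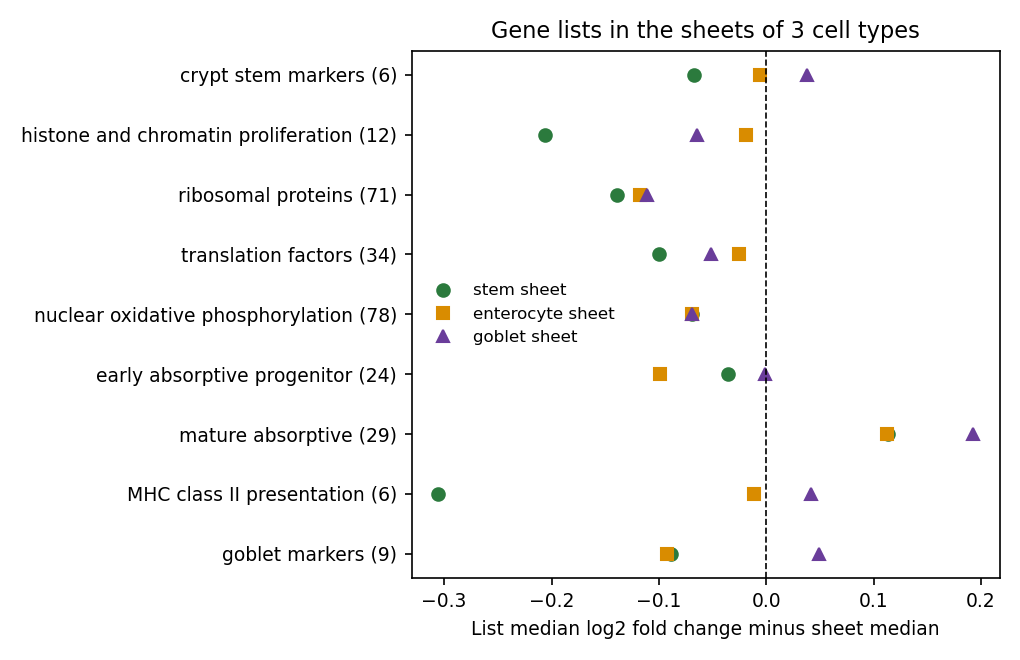
Median log2 fold change of 9 gene lists minus the median of all genes of the sheet, in the stem (circles), enterocyte (squares) and goblet (triangles) sheets, over the genes listed in all 3 (number in brackets). Class II genes are 0.31 under in stem cells and 0.01 under in enterocytes, and mature absorptive genes are over the median in all 3 sheets. The values are not matched for detection, which differs between the sheets.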

How the data were processed

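Single-cell RNA sequencing by inDrops was analysed from tables the authors deposited. Per the submitters' processing notes, mm10 was the build, and DESeq2 version 1.30.1, Seurat and Cell Ranger were used. Cell filters, doublet treatment, cell type assignment and the tool behind each column are not given in the sources used here. The deposited values, per the file headers, are log2 fold changes and fractions of cells with a gene, printed as percent. The deposited p-values, over single cells, served only to look for the zero point.

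Gene lists (28) were counted in Python 3.11.15 with pandas 2.3.3, and checked on simulated data with known shifts. Members and lists were chosen with earlier results of these data known. Each gene was also set against the median of its decile of mean detection. Named genes were the given markers, the top 20 cluster 2 markers, list members at or beyond 0.25 (otherwise the 2 highest and 2 lowest), all crypt stem markers and the extremes of fold change (20 each way) and detection (10 each way). A few other genes, such as Muc2, Pttg1, Pbk and Slc10a2, were named after their values were seen. Positions are from RefSeq GRCm38 (5286 of 5403 genes matched). Alternatives were other fold limits, zero points, a detection floor, and other choices of members. Not every gene that the naming rule gives is reported here.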

Additional observations from a re-analysis of the deposited data

How the results depend on the processing

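Counts past the fold depended on the limit and on the zero point. Of all genes, 1703 were lower and 17 higher; with a limit of 0.25 these were 237 and 1, with 0.05 they were 3505 and 72, with zero at the median of all genes 679 and 142, at the median of well-detected genes (70% or more in each group) 117 and 3617, at the median of the same decile of detection 238 and 260, and at the p-value order (chosen after seeing the data) 1 and 5397. The p-value order does not locate a zero, so the counts given for it hold for a zero of -0.67 only. Of cluster 2 markers, 590 were lower and 3 higher. In the same order the lower counts were 159, 696, 373, 79, 115 and 0, and the higher counts 0, 11, 13, 162, 84 and 759, while markers at or above 0.5 gave 218 and 0. With zero at the median of well-detected genes, the members under it numbered 3 of 22 listed crypt stem, 1 of 38 replication, 12 of 41 mitosis, 16 of 33 chromatin, 8 of 29 early absorptive and 0 of 29 mature absorptive genes; under the median of all genes these lists had 14, 20, 35, 31, 17 and 1. With a detection floor of 25% they numbered 9 (crypt stem), 5 (replication), 17 (mitosis), 11 (early absorptive) and 0 (mature absorptive), since fewer genes are left. By decile of detection, 10 early absorptive genes lay under. Against well-detected genes 23 of 24 list medians lay over and only that of class II under. The 18 that turned included 0.0964 for crypt stem, 0.118 for replication, 0.106 for early absorptive, 0.083 for translation, 0.0645 for mitosis, 0.00466 for chromatin, 0.0108 for ribosomal proteins, 0.066 for oxidative phosphorylation, 0.0446 for glycolysis, 0.0211 for class I and 0.0392 for goblet genes (log2). By decile of detection 8 of 24 turned to over, at 0.0266 for oxidative phosphorylation, 0.0562 for early absorptive, 0.049 for mitochondrially encoded, 0.041 for chaperone, 0.0356 for villus bottom, 0.0101 for villus tip, 0.0135 for fatty acid oxidation and 0.0164 for interferon genes, and 2 turned to under (Wnt and Notch, Paneth). With the detection floor 8 turned to over and 1 to under, and with means 1 each way. The cause was not tested. The sides of the class II, mature absorptive and inhibitor lists did not turn under any alternative run for lists. Cell numbers and depth, not given in the sources used here, limit how finely weakly detected genes can be read. No paired analysis was possible because each genotype had 1 pooled sample.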
